A study of Mus musculus with 16 samples.

Results

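Enzymes of xenobiotic metabolism modify drugs and plant compounds, and also bile acids, steroids and retinoids, into forms that are easier to excrete. Cytochromes P450 (Cyp), alcohol dehydrogenases (Adh), aldehyde dehydrogenases (Aldh) and carboxylesterases (Ces) oxidise or hydrolyse a compound. UDP-glucuronosyltransferases (Ugt), sulfotransferases (Sult) and glutathione S-transferases (Gst) then attach a sugar acid, a sulfate or glutathione. The liver is their best known site, and the villus of the small intestine carries many of them as a first barrier to what is eaten. Members were found by gene symbol alone. A gene was a member if a probe set bore its symbol and no other, and the symbol began with Cyp and a digit (Cyp51 left out), Ugt1, Ugt2, Sult, Gst and a class letter (a, k, m, o, p, t or z), Ces, Adh and a digit, or Aldh. This gave 84 genes on 110 probe sets, of 8251 genes that a probe set represented singly. Their families held 39 Cyp, 4 Adh, 10 Aldh, 5 Ces, 2 Ugt, 9 Sult and 15 Gst genes.

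RNA of laser-captured epithelial cells from mouse ileum, the last stretch of the small intestine, was hybridised to 16 oligonucleotide arrays after 2 rounds of amplification. The labels gave 5 arrays as carcinoma (invasive tumour), 5 as adenoma (benign tumour) and 6 as WT (wild type). The meaning of the prefix in all 16 titles, and the strain, tumour genotype, treatment, age and number of animals, are not stated in these sources. No label links a capture to an animal. Captures that shared an animal would make the p-values too small. The number of arrays limits the precision. Signals are the deposited intensities in arbitrary units. Values under 46.9, the 25th percentile of the whole table, were set to that floor for the tests (5.55 on the log2 scale), so fold changes of dim genes are understated.

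Of the 84 genes, 71 lay above the floor on at least 5 of the 16 arrays and were tested. The 13 below this filter were Aldh1a2, Aldh18a1, Ces1c, Cyp2b9, Cyp2d10, Cyp2j5, Cyp2j6, Cyp3a16, Cyp7a1, Gsta1, Sult1a1, Sult1c1 and Sult3a1. The symbol rule also takes in enzymes with other duties. Examples are Cyp11a1, Cyp17a1 and Cyp21a1 of steroid hormone synthesis, Cyp7a1, Cyp7b1 and Cyp8b1 of bile acid synthesis, Cyp24a1 and Cyp27b1 of vitamin D metabolism, and Aldh18a1 of proline synthesis. No Ugt1 gene had a probe set of its own. A gene with several probe sets (22 of the 84) was represented by the one with the highest mean. As a check of the tissue label, 10 epithelial genes such as Cdh1, Epcam and Krt8 had a summed signal of 52222.2 to 116902 on the carcinoma arrays and 66946.8 to 93546 on the adenoma arrays, against 57283.9 to 177728 on the WT arrays. None of the 10 passed limma's test in any comparison, with 4 in carcinoma and 2 in adenoma at an unadjusted p under 0.05 against WT.

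Carcinoma cells held lower signals than WT cells for many of these enzymes. By limma with Benjamini-Hochberg adjustment over 7455 genes at 0.05, 20 of the 71 members (28.2%) differed between carcinoma and WT, 18 lower and 2 higher. Among all genes tested the share was 9.05%, with 4.9% lower and 4.16% higher. In adenoma against WT, 11 of the 71 members (15.5%) passed, 9 lower and 2 higher. Among all genes this share was 8.28%, with 4.25% lower and 4.02% higher. The median log2 fold change of the 71 members was -0.58 in carcinoma and -0.35 in adenoma, where that of all genes was -0.14 in each. In bulk captures, fewer cells of a type and less RNA per cell cannot be told apart.

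**Figure D1:**
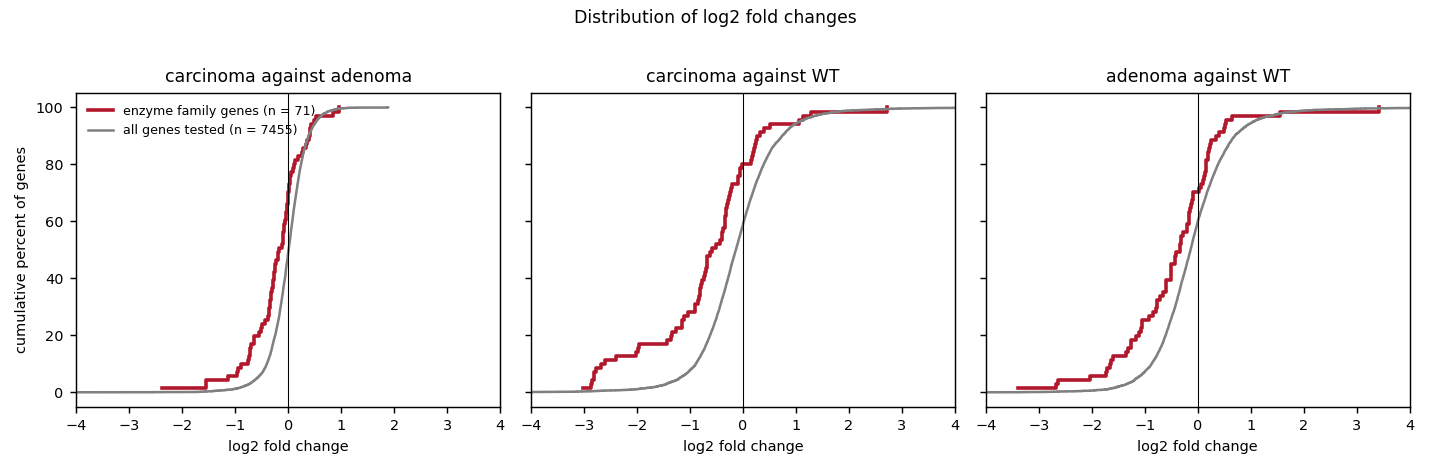
Cumulative share of genes (percent, vertical axis) by log2 fold change (horizontal axis) for the 71 enzyme genes (red) and all 7455 genes tested (grey). In carcinoma against WT and adenoma against WT the red curve lies left of the grey one at negative fold changes, with medians of -0.58 and -0.35 for the enzyme genes and -0.14 for all genes in each.

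The groups did not overlap for 14 members with every carcinoma array below every WT array and for 3 with every carcinoma array above. Over all genes these shares were 3.15% and 3.13%. Every adenoma array lay below every WT array for 7 members and above for 2, where the shares over all genes were 2.74% and 3.06%. The number of members with a negative fold change depended on how arrays were scaled. It was 57 of 71 in carcinoma as deposited, 46 of 69 after quantile normalization and 48 of 71 with array medians aligned. The matching numbers in adenoma were 50, 45 and 43. As deposited, the members' shares were 80.3% in carcinoma and 70.4% in adenoma, where 58.9% and 59.9% of all genes were below 0. The 2 other scalings moved the median of all genes to -0.01 and 0.15 in carcinoma, and to -0.02 and 0.12 in adenoma. They left 15 and 14 members lower and 3 higher in carcinoma, and 9 and 7 lower in adenoma. The median spread between arrays of a group was 0.66 (SD, log2) for the 71 members and 0.59 for all genes.

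Measures of RNA quality and cell type moved with the groups. The log2 ratio of 3' to 5' Gapdh probe set signal, which grows as RNA becomes shorter, was 5.70 ± 0.58 in carcinoma and 5.82 ± 0.24 in adenoma, against 4.52 ± 0.39 in WT (SD, n = 5, 5 and 6). Exact permutation tests gave p = 0.00433 for carcinoma and p = 0.00216 for adenoma (both 0.00649 adjusted over 3 pairs, two-sided). Mean log2 signal of the spiked-in control transcripts was 12.23 ± 0.50 in carcinoma and 12.24 ± 0.82 in adenoma, against 13.742 ± 1.003 in WT (exact permutation p = 0.0238 and p = 0.0325, both 0.0487 adjusted). Of a list of absorptive enterocyte genes, 13 were measured, such as Fabp2, Dpp4 and Slc5a1. They summed to 1962.8 to 6224.3 in carcinoma and 3485.9 to 46445.5 in adenoma, against 16406.8 to 88877.9 in WT. Of the 13, 8 were lower in carcinoma and 6 in adenoma, and none passed as higher. Fabp1 (0.94) and Apoa4 (0.69) pointed up in adenoma without passing. Mttp of this list was at the floor on all carcinoma arrays. The liver is the other strong source of these enzymes. Of 8 hepatocyte genes on the array, Apoh and Fga were at the floor on all adenoma arrays and Fgb on all WT arrays, and the list's sum was 1566 to 5306.2 in carcinoma and 2174.6 to 5835.4 in adenoma, against 8496.7 to 18905.8 in WT. Most of this sum in WT was Cps1, which enterocytes also express. Its mean log2 signal there was 13.50, against 7.75 for Tat, the next brightest of the list. The fall of the sum is therefore mainly that of 1 gene. Of the 5 tested genes, Cps1 was lower in carcinoma (-3.21) and adenoma (-2.16), and Alb was higher in carcinoma (2.44). Of the markers of other cell types, 3 of 4 goblet and 4 of 7 enteroendocrine genes were lower in each tumour group. Higher in each were 3 of 6 mast cell genes, 2 of 6 stem and crypt genes and 2 Paneth genes. These Paneth genes, Mmp7 and Pla2g2a, were the only ones of 6 listed that were measured. Of 5 endothelial genes only Cdh5 passed, higher in adenoma (2.17), where Pecam1 pointed the other way without passing (-0.55). None of the 5 passed in carcinoma. Of 5 tested T, B and plasma cell genes, Jchain was lower in carcinoma (-1.96) and adenoma (-1.79) and Cd79b in adenoma (-1.67). The part of these cell type markers in the enzyme results was not tested. Fits with the control measures as covariates are given with the single calls.

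**Figure D2:**
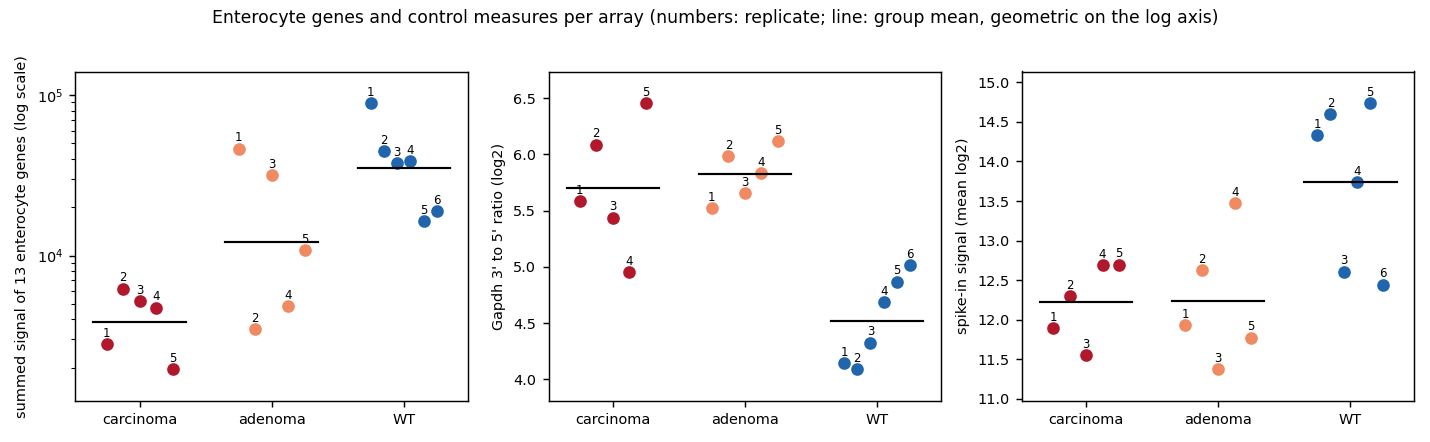
Per array, the summed signal of 13 enterocyte genes (arbitrary units, log axis), the Gapdh 3' to 5' ratio (log2) and the mean spike-in signal (log2). Points are arrays numbered by replicate and lines are group means; all 5 carcinoma arrays lie below all WT arrays in the enterocyte sum, and adenoma 1 and 3 are the highest adenoma arrays.

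Among 33 cytochromes P450 tested, 8 were lower and 1 higher in carcinoma, and 2 were lower and 1 higher in adenoma. The shares past the threshold were 27.3% in carcinoma and 9.09% in adenoma, where those of all genes were 9.05% and 8.28%, so the adenoma share was near that of all genes. The one that rose was Cyp1b1, an oxidase of steroids and polycyclic aromatic hydrocarbons that is expressed mainly outside the liver and is induced through the aryl hydrocarbon receptor. Its signal was 608.7, 234.0, 287.9, 279.6 and 325.7 on the carcinoma arrays and 1361.5, 277.7, 441.8, 399.5 and 670.5 on the adenoma arrays, against 19.4 to 69.1 (median 30.9) on the WT arrays. All tumour arrays lay above all WT arrays, and WT 1 (69.1) was the only WT array above the floor. For Cyp1b1, the log2 fold change against WT was 2.71 ± 0.35 in carcinoma (adjusted p = 4.37e-05), a level 6.53-fold higher, and 3.42 ± 0.35 in adenoma (adjusted p = 3.01e-06), 10.7-fold higher. Since 5 of 6 WT arrays were at the floor, these folds are understated. Fibroblasts and other stromal cells also express Cyp1b1. The 11 smooth muscle and fibroblast markers summed to 8659.6 to 16725.1 in carcinoma and 6687.3 to 11630.1 in adenoma, against 5988.7 to 13088.9 in WT. Col1a1 and Dcn of that list were higher in carcinoma, and Myh11 and Acta2 were lower in both tumour groups. Cyp1a1, a further target of the same receptor, did not pass, at 1.07 ± 0.41 in carcinoma (adjusted p = 0.114) and 0.10 ± 0.41 in adenoma. It was past the threshold and higher in carcinoma after quantile normalization (1.29, adjusted p = 0.0413) and with array medians aligned (1.30, adjusted p = 0.0391). The second Cyp1a1 probe set pointed the other way in carcinoma, at -1.03. Cyp1a2 was at -0.77 ± 0.35 and -0.72 ± 0.35 and did not pass either.

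**Figure D3:**
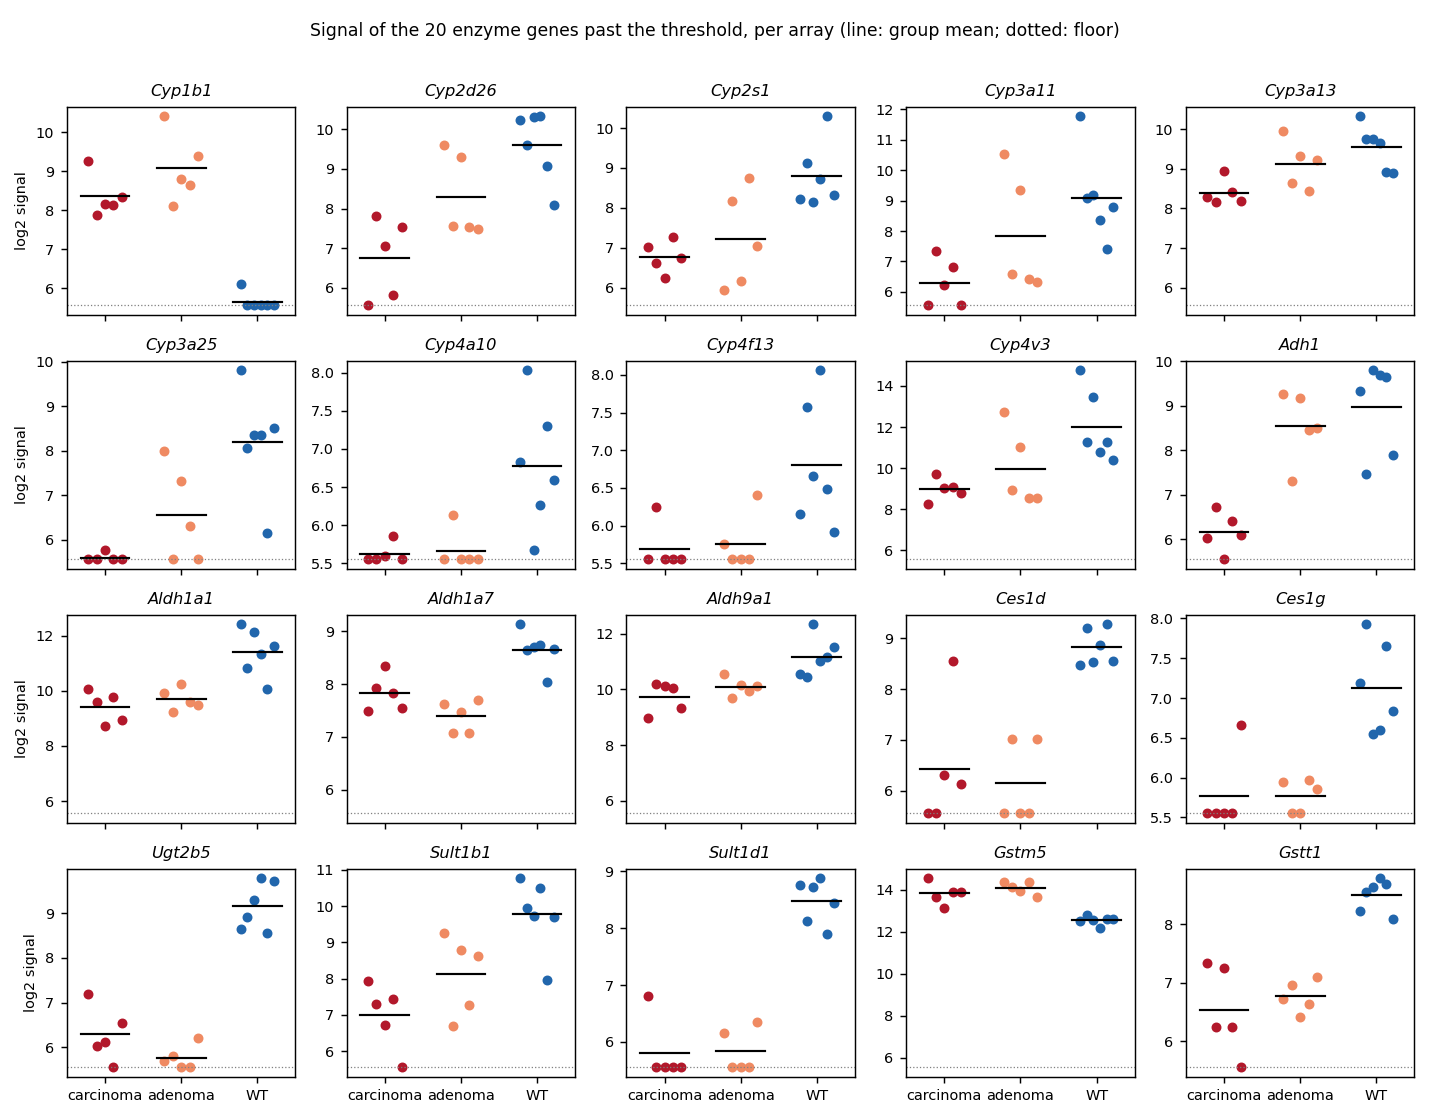
Log2 signal of the 20 enzyme genes past the threshold, with 1 point per array, lines at group means and a dotted line at the floor of 5.55. Cyp1b1 and Gstm5 sit higher on every carcinoma and adenoma array than on any WT array, Ugt2b5, Sult1d1 and Gstt1 sit lower on every one, and Adh1 sits low on the 5 carcinoma arrays alone.

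The Cyp3a genes, the main drug oxidases of mouse liver and gut and targets of the pregnane X receptor, were lower in carcinoma for all 3 members tested. Cyp3a11 read 20.3, 160.9, 75.6, 113.0 and 21.7 on the carcinoma arrays and 1476.0, 96.3, 656.1, 86.0 and 79.4 on the adenoma arrays, against 169.9 to 3507.8 (median 495.8) on the WT arrays. Every carcinoma array lay below every WT array, while adenoma 1 and 3 lay among the WT arrays and the other 3 adenoma arrays below them. For Cyp3a11, the log2 fold change against WT was -2.80 ± 0.77 in carcinoma (adjusted p = 0.0275), a level 6.98-fold lower, and -1.26 ± 0.77 in adenoma (adjusted p = 0.348). Cyp3a25 read 4.7, 45.0, 54.4, 31.3 and 31.3 on the carcinoma arrays and 253.7, 19.5, 158.9, 79.5 and 40.9 on the adenoma arrays, against 70.7 to 899.6 (median 328.4) on the WT arrays. Here too carcinoma and WT did not overlap, and 3 adenoma arrays lay among the WT arrays. For Cyp3a25, the log2 fold change against WT was -2.61 ± 0.51 in carcinoma (adjusted p = 0.00263), a level 6.12-fold lower, and -1.66 ± 0.51 in adenoma (adjusted p = 0.0517). Cyp3a13 read 311.7, 284.4, 494.9, 342.5 and 291.9 on the carcinoma arrays and 984.1, 398.2, 643.8, 346.0 and 598.4 on the adenoma arrays, against 471.9 to 1282.3 (median 828.8) on the WT arrays. The carcinoma arrays lay below all WT arrays but for carcinoma 3, which was above WT 5 and 6, and adenoma overlapped both other groups. For Cyp3a13, the log2 fold change against WT was -1.15 ± 0.31 in carcinoma (adjusted p = 0.027), a level 2.22-fold lower, and -0.43 ± 0.31 in adenoma (adjusted p = 0.43). The coding genes Cyp3a11 and Cyp3a25 are direct neighbours on chromosome 5, and Cyp3a13 lies elsewhere on it.

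Promoters of 6 members, picked with their values known to show different patterns of change and not as the 6 largest changes, were read from RefSeq (GRCm38.p6), from 250 bases before to 50 bases after the annotated start, 5′ to 3′ on the gene's strand. Capitals mark matches, on either strand, to 5 textbook motifs of regulators of these enzymes. These were GCGTG (core of the aryl hydrocarbon receptor site), TGACNNNGC (core of the antioxidant response element bound by NRF2), GTTAAT (HNF1), CAAAGTCCA (HNF4) and AGATAA (bound by GATA factors). A match describes letters and is not a binding site. Of 32851 promoters in the table, 32.4%, 12.4%, 7.1%, 0.475% and 11.2% held the motifs in this order. Of 77 promoters of 66 members, 20, 6, 5, 5 and 15 held them, and related members share sequence. The promoters of the Cyp1b1 gene, which rose, and the Cyp3a11 gene, which was lower in carcinoma, are set side by side.
Cyp1b1: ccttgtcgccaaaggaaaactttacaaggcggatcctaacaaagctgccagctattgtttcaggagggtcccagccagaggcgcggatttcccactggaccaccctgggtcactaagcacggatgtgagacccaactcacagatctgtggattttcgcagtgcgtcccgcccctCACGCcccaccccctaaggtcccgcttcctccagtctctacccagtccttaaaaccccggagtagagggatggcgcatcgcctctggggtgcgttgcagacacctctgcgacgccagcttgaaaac
Cyp3a11: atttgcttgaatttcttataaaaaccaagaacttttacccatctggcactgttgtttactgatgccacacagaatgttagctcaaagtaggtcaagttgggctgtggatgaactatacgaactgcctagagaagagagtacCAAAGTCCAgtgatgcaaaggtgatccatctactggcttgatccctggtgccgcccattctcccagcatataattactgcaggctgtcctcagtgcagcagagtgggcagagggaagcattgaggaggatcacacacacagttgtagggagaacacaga
The Cyp1b1 window (chr17:79715012-79715311, minus strand) held GCGTG on the opposite strand, 76 to 72 bases before the start. The Cyp3a11 window (chr5:145879805-145880104, minus strand) held CAAAGTCCA, 109 to 101 bases before the start.

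Cyp2 genes include many drug and steroid oxidases. Cyp2d26 read 23.7, 223.7, 132.3, 56.6 and 184.1 on the carcinoma arrays and 776.9, 188.1, 627.2, 186.3 and 178.7 on the adenoma arrays, against 270.1 to 1288.7 (median 996.5) on the WT arrays. All carcinoma arrays lay below all WT arrays while adenoma 1 and 3 lay among the WT arrays and the other 3 adenoma arrays below them. For Cyp2d26, the log2 fold change against WT was -2.86 ± 0.53 in carcinoma (adjusted p = 0.00165), a level 7.24-fold lower, and -1.31 ± 0.53 in adenoma (adjusted p = 0.143). Cyp2s1 is a P450 of epithelia outside the liver. It read 129.6, 98.4, 75.4, 155.0 and 107.4 on the carcinoma arrays and 61.1, 290.0, 71.5, 427.6 and 131.3 on the adenoma arrays, against 282.8 to 1256.9 (median 371.1) on the WT arrays. Carcinoma and WT did not overlap, and the highest adenoma arrays were 2 and 4. For Cyp2s1, the log2 fold change against WT was -2.03 ± 0.48 in carcinoma (adjusted p = 0.0109), a level 4.08-fold lower, and -1.60 ± 0.48 in adenoma (adjusted p = 0.0454). The adenoma call of Cyp2s1 was lost without any 1 of 11 arrays and under several other settings (adjusted p up to 0.136 with an array left out). Of the uncalled members, Cyp2f2, known for naphthalene activation in mouse lung, was at -0.81 ± 0.40 in carcinoma and -1.16 ± 0.40 in adenoma (adjusted p = 0.23 and 0.086).

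Cyp4 genes mainly hydroxylate fatty acids at their end. Cyp4v3 read 306.1, 832.0, 526.4, 544.0 and 442.4 on the carcinoma arrays and 6703.7, 491.4, 2054.4, 374.3 and 373.6 on the adenoma arrays, against 1327.6 to 27941.9 (median 2473.8) on the WT arrays. The carcinoma arrays lay below all WT arrays, and so did 3 adenoma arrays, while adenoma 1 and 3 lay among the WT arrays. For Cyp4v3, the log2 fold change against WT was -3.02 ± 0.79 in carcinoma (adjusted p = 0.0202), a level 8.09-fold lower, and -2.04 ± 0.79 in adenoma (adjusted p = 0.125). Without carcinoma 1 the carcinoma value was -2.84 (adjusted p = 0.0557), and without adenoma 1 the adenoma value was -2.73 (adjusted p = 0.0307). Cyp4a10, a known target of PPAR-alpha, read 3.6 to 58.0 on the carcinoma arrays and 7.5 to 70.2 on the adenoma arrays, against 51.2 to 261.7 on the WT arrays. For Cyp4a10, the log2 fold change against WT was -1.16 ± 0.32 in carcinoma (adjusted p = 0.0295), a level 2.23-fold lower, and -1.11 ± 0.32 in adenoma (adjusted p = 0.0403). It was at the floor on 3 carcinoma and 4 adenoma arrays, so its fold is understated. Cyp4f13 read 14.6 to 76.2 on the carcinoma arrays and 14.0 to 84.5 on the adenoma arrays, against 60.2 to 267.5 on the WT arrays. For Cyp4f13, the log2 fold change against WT was -1.12 ± 0.35 in carcinoma (adjusted p = 0.0496), a level 2.17-fold lower, and -1.05 ± 0.35 in adenoma (adjusted p = 0.0706). The second Cyp4f13 probe set was at -0.65 in carcinoma and -0.37 in adenoma and did not pass (limma adjusted p = 0.378 and 0.640 over all probe sets). With the mean of its probe sets the carcinoma call of Cyp4f13 was lost. Cyp4b1 did not pass, at -1.26 ± 0.51 in carcinoma (adjusted p = 0.135) and -0.77 ± 0.51 in adenoma.

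The other P450 members passed no test. The 24 uncalled in carcinoma ranged from -1.26 (Cyp4b1) to 1.07 (Cyp1a1), 20 of them below 0. The 30 uncalled in adenoma, some of which passed in carcinoma (Cyp4v3 among them), ranged from -2.04 (Cyp4v3) to 0.24 (Cyp26a1), 24 below 0. Over all genes 58.9% were below 0 in carcinoma and 59.9% in adenoma. Besides those named, the P450 members that passed no test were Cyp2a12, Cyp2b10, Cyp2b13, Cyp2b19, Cyp2c29, Cyp2c38, Cyp2c39, Cyp2c70, Cyp2d9 and Cyp2e1. The rest were Cyp4a12b, Cyp4a14, Cyp7b1, Cyp8b1, Cyp11a1, Cyp17a1, Cyp21a1, Cyp24a1 and Cyp27b1. Cyp26a1, which degrades retinoic acid, was at -0.06 ± 0.32 in carcinoma.

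Alcohol and aldehyde dehydrogenases oxidise ethanol and other alcohols, and the aldehydes formed, and they make retinoic acid from retinol. Adh1 encodes the class I alcohol dehydrogenase. It read 65.7, 106.4, 43.5, 85.4 and 69.1 on the carcinoma arrays and 620.5, 159.9, 579.7, 351.0 and 362.4 on the adenoma arrays, against 178.2 to 894.0 (median 728.5) on the WT arrays. Every carcinoma array lay below every adenoma array and below every WT array, and adenoma and WT overlapped over most of their range. For Adh1, the log2 fold change against WT was -2.81 ± 0.45 in carcinoma (adjusted p = 4.05e-04), a level 7-fold lower, and -0.43 ± 0.45 in adenoma (adjusted p = 0.589). Between carcinoma and adenoma it differed by -2.38 ± 0.47, 5.19-fold lower, which did not pass after adjustment over all genes (limma adjusted p = 0.124). Its promoter (chr3:138277335-138277634, plus strand), shown for this carcinoma pattern, held AGATAA 150 to 145 bases before the start.
Adh1: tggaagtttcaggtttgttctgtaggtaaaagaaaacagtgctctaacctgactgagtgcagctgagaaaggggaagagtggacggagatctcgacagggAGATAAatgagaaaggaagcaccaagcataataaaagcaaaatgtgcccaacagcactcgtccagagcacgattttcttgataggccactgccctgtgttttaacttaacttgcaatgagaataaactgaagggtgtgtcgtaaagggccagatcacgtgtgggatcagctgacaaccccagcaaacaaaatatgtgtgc
The other 3 Adh members passed no test. Adh5, which clears formaldehyde with glutathione, was at 0.19 ± 0.23 in carcinoma and 0.15 ± 0.23 in adenoma. The second Adh5 probe set was higher, at 0.88 in carcinoma and 0.997 in adenoma. It did not pass either (limma adjusted p = 0.0998 and 0.0655 over all probe sets). Adh7, a retinol-oxidising enzyme, was at -0.52 ± 0.52 and -0.78 ± 0.52. Adh4 was at the floor on all carcinoma arrays and above it on all 6 WT arrays (at least 1.86-fold lower, adjusted p = 0.112).

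Of 8 Aldh members tested, 3 were lower in carcinoma and 2 in adenoma. The shares past the threshold were 37.5% and 25%, where those of all genes were 9.05% and 8.28%. Aldh1a1 converts retinal to retinoic acid. It read 1075.6, 764.5, 422.7, 865.9 and 494.3 on the carcinoma arrays and 978.8, 593.6, 1202.3, 767.1 and 708.4 on the adenoma arrays, against 1082.0 to 5487.3 (median 2882.3) on the WT arrays. Carcinoma lay below all WT arrays, and adenoma 3 (1202.3) overlapped WT 5. For Aldh1a1, the log2 fold change against WT was -1.99 ± 0.38 in carcinoma (adjusted p = 0.00201), a level 3.98-fold lower, and -1.72 ± 0.38 in adenoma (adjusted p = 0.00704), 3.3-fold lower. Its second probe set was at -0.82 in carcinoma and -0.94 in adenoma and did not pass (limma adjusted p = 0.186 and 0.131 over all probe sets). Aldh1a7, its neighbour on chromosome 19 with no coding gene between, read 178.9 to 324.8 on the carcinoma arrays and 135.1 to 208.0 on the adenoma arrays, against 262.7 to 562.4 on the WT arrays. For Aldh1a7, the log2 fold change against WT was -0.83 ± 0.25 in carcinoma (adjusted p = 0.0424), a level 1.77-fold lower, and -1.26 ± 0.25 in adenoma (adjusted p = 0.00284), 2.4-fold lower. Its carcinoma call was lost without any 1 of 11 arrays, with adjusted p up to 0.109. Aldh9a1, which acts in carnitine synthesis, read 504.7 to 1181.9 on the carcinoma arrays and 829.7 to 1520.9 on the adenoma arrays, against 1404.1 to 5197.4 on the WT arrays. For Aldh9a1, the log2 fold change against WT was -1.44 ± 0.33 in carcinoma (adjusted p = 0.0101), a level 2.71-fold lower, and -1.08 ± 0.33 in adenoma (adjusted p = 0.0541). Aldh2, the mitochondrial acetaldehyde enzyme, was at -0.28 ± 0.27 and 0.05 ± 0.27 and passed neither test. Aldh3a1 (-0.35 ± 0.46 and -0.32 ± 0.46), Aldh7a1 (0.33 ± 0.28 and 0.51 ± 0.28), Aldh1a3 and Aldh3a2 passed none either. Another Aldh7a1 probe set pointed the other way, at -0.30 in carcinoma and -0.42 in adenoma.

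Carboxylesterases hydrolyse esters, amides and stored lipids. Of 4 tested, 2 were lower in each tumour group (50%), where 9.05% of all genes passed in carcinoma and 8.28% in adenoma. Ces1d read 21.0, 33.3, 79.2, 377.1 and 70.0 on the carcinoma arrays and 33.7, 130.1, 45.2, 32.4 and 129.8 on the adenoma arrays, against 354.3 to 621.0 (median 423.6) on the WT arrays. Every adenoma array lay below every WT array, and so did the carcinoma arrays apart from carcinoma 4 (377.1). For Ces1d, the log2 fold change against WT was -2.40 ± 0.47 in carcinoma (adjusted p = 0.00245), a level 5.28-fold lower, and -2.68 ± 0.47 in adenoma (adjusted p = 0.00108), 6.41-fold lower. The second Ces1d probe set gave -2.58 in carcinoma and -3.004 in adenoma. Ces1g read 12.2, 41.8, 34.8, 14.0 and 101.4 on the carcinoma arrays and 61.8, 4.8, 12.8, 62.7 and 57.8 on the adenoma arrays, against 93.9 to 243.7 (median 130.1) on the WT arrays. All adenoma arrays were below all WT arrays and 1 carcinoma array, carcinoma 5, overlapped WT. For Ces1g, the log2 fold change against WT was -1.35 ± 0.30 in carcinoma (adjusted p = 0.00637), a level 2.55-fold lower, and -1.35 ± 0.30 in adenoma (adjusted p = 0.0069), 2.55-fold lower. Ces1d and Ces1g lie on chromosome 8 with 2 coding genes between them. Ces2g, an intestinal carboxylesterase, was at -0.06 ± 0.32 and 0.22 ± 0.32, and Ces3a was at -0.67 ± 0.40 and -0.32 ± 0.40, with neither past the threshold.

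Of the 2 glucuronosyltransferases tested, 1 was lower in each tumour group, and of the 6 sulfotransferases 2 were lower in carcinoma and 1 in adenoma. The sulfotransferase shares were 33.3% and 16.7%, where those of all genes were 9.05% in carcinoma and 8.28% in adenoma. Ugt2b5 attaches glucuronic acid to steroids, phenols and drugs. Its signal was 145.3, 65.7, 69.7, 44.7 and 93.0 on the carcinoma arrays and 51.5, 56.0, 39.9, 18.7 and 73.7 on the adenoma arrays, against 374.2 to 884.1 (median 556.2) on the WT arrays. The groups were far apart, with the highest tumour array at 145.3 and the lowest WT array at 374.2. For Ugt2b5, the log2 fold change against WT was -2.87 ± 0.31 in carcinoma (adjusted p = 5.76e-06), a level 7.31-fold lower, and -3.40 ± 0.31 in adenoma (adjusted p = 8.94e-07), 10.5-fold lower. Ugt2b34, the only other member of this family, did not pass, at -0.86 ± 0.34 and -0.78 ± 0.34 (adjusted p = 0.122 and 0.166). Sult1d1 sulfates catecholamines and phenols in mouse. Its signal was 112.4, 11.1, 41.8, 11.6 and 19.2 on the carcinoma arrays and 71.0, 7.3, 35.9, 15.4 and 81.7 on the adenoma arrays, against 239.9 to 472.1 (median 386.1) on the WT arrays. It was at or under the floor on 4 carcinoma and 3 adenoma arrays, and no tumour array overlapped WT. For Sult1d1, the log2 fold change against WT was -2.67 ± 0.29 in carcinoma (adjusted p = 6.19e-06), a level 6.38-fold lower, and -2.65 ± 0.29 in adenoma (adjusted p = 7.54e-06), 6.26-fold lower.

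Both promoters are shown because these genes fell in either tumour group under all 30 alternatives tried.
Ugt2b5: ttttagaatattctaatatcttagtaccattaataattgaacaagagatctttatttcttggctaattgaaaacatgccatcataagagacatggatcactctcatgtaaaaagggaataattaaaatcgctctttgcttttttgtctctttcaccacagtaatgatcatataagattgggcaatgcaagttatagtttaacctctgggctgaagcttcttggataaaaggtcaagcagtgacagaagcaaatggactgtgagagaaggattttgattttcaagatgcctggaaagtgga
Sult1d1: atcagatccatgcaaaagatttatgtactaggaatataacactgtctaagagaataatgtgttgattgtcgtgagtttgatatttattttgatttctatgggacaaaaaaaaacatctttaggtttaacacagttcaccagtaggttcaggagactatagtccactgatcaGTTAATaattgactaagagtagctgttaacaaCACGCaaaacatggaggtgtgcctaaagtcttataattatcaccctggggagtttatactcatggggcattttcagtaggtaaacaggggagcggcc
The Ugt2b5 window (chr5:87140291-87140590, minus strand) held none of the 5 motifs. The Sult1d1 window (chr5:87568957-87569256, minus strand) held GTTAAT 79 to 74 bases before the start, and GCGTG on the opposite strand 47 to 43 bases before it.

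Sult1b1, which sulfates thyroid hormones and small phenols, lies next to Sult1d1 on chromosome 5, with Ugt2b5 5 coding genes away from it. Its signal was 243.7, 156.3, 105.8, 173.4 and 40.7 on the carcinoma arrays and 618.0, 104.1, 443.4, 155.4 and 391.5 on the adenoma arrays, against 247.7 to 1752.1 (median 918.0) on the WT arrays. Carcinoma and WT did not overlap, and adenoma 1 and 3 were the highest adenoma arrays. For Sult1b1, the log2 fold change against WT was -2.78 ± 0.54 in carcinoma (adjusted p = 0.00228), a level 6.88-fold lower, and -1.64 ± 0.54 in adenoma (adjusted p = 0.0679). Sult5a1 was at -1.35 ± 0.43 and -0.65 ± 0.43, and the cholesterol sulfotransferase Sult2b1 at -0.73 ± 0.29 and -0.35 ± 0.29. Neither passed (adjusted p = 0.0604 and 0.122 in carcinoma). The other tested members, Sult2a2 and Sult4a1, did not pass.

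Glutathione S-transferases conjugate electrophiles to glutathione. Of 14 tested, 1 rose and 1 fell in each tumour group. This share of 14.3% compares with 9.05% of all genes in carcinoma and 8.28% in adenoma. With so few genes, the count was not far from those shares. The median log2 fold change of the family was -0.15 in carcinoma and -0.05 in adenoma. Gstm5, a mu-class enzyme, was the one that rose. Its signal was 24066.0, 13046.1, 8960.0, 15360.2 and 14964.0 on the carcinoma arrays and 20913.8, 18085.2, 15957.4, 21290.1 and 12739.5 on the adenoma arrays, against 4652.7 to 7001.1 (median 6109.3) on the WT arrays. All tumour arrays were above all WT arrays. For Gstm5, the log2 fold change against WT was 1.28 ± 0.25 in carcinoma (adjusted p = 0.00268), a level 2.44-fold higher, and 1.55 ± 0.25 in adenoma (adjusted p = 6.07e-04), 2.93-fold higher. Of its 3 other probe sets, those at 1.35 and 1.23 in carcinoma and 1.31 and 1.29 in adenoma went the same way, and the third was at -0.33 and -0.17. With the mean of its 4 probe sets the calls were lost, at 0.88 in carcinoma and 0.996 in adenoma (limma adjusted p = 0.116 and 0.08). Of the other mu-class genes, Gstm1 stood at 0.16 ± 0.26 and 0.50 ± 0.26, and passed neither test. The Gstm5 promoter (chr3:107895604-107895903, plus strand) is shown as that of the transferase that rose.
Gstm5: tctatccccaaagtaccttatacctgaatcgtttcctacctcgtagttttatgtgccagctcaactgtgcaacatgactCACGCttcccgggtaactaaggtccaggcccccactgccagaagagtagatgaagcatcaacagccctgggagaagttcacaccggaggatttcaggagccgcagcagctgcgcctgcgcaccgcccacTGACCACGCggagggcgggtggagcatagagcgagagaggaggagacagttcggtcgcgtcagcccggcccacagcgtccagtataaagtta
It held GCGTG on the opposite strand 171 to 167 and 38 to 34 bases before the start, the nearer match inside a TGACNNNGC match (42 to 34 bases before).

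Gstt1, a theta-class enzyme, was the transferase that fell. Its signal was 160.7, 75.6, 151.9, 76.0 and 31.3 on the carcinoma arrays and 105.5, 124.1, 85.4, 99.6 and 136.2 on the adenoma arrays, against 272.2 to 441.2 (median 385.4) on the WT arrays. Its tumour arrays all lay below its WT arrays. For Gstt1, the log2 fold change against WT was -1.97 ± 0.30 in carcinoma (adjusted p = 2.73e-04), a level 3.92-fold lower, and -1.73 ± 0.30 in adenoma (adjusted p = 0.00106), 3.31-fold lower. The alpha-class Gsta4, which removes lipid peroxidation products, read 450.9 to 1265.8 on the carcinoma arrays and 200.3 to 813.7 on the adenoma arrays, against 82.6 to 433.8 on the WT arrays. Its carcinoma arrays all lay above its WT arrays. At 1.13 ± 0.44 in carcinoma (adjusted p = 0.117) and 0.64 ± 0.44 in adenoma it did not pass. Gstm3 was at -1.03 ± 0.36 in carcinoma (adjusted p = 0.0825) and -0.29 ± 0.36 in adenoma. Gstz1 lay below every WT array on all tumour arrays by a smaller step, -0.58 ± 0.20 and -0.60 ± 0.20 (adjusted p = 0.0837 and 0.0758). Gsta2, Gsta3, Gstk1, Gstm2, Gstm6, Gsto1, Gstp1 and Gstt2 did not pass. The 12 uncalled members of the family ranged from -1.03 to 1.13 in carcinoma and from -0.60 to 0.64 in adenoma.

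**Figure D4:**
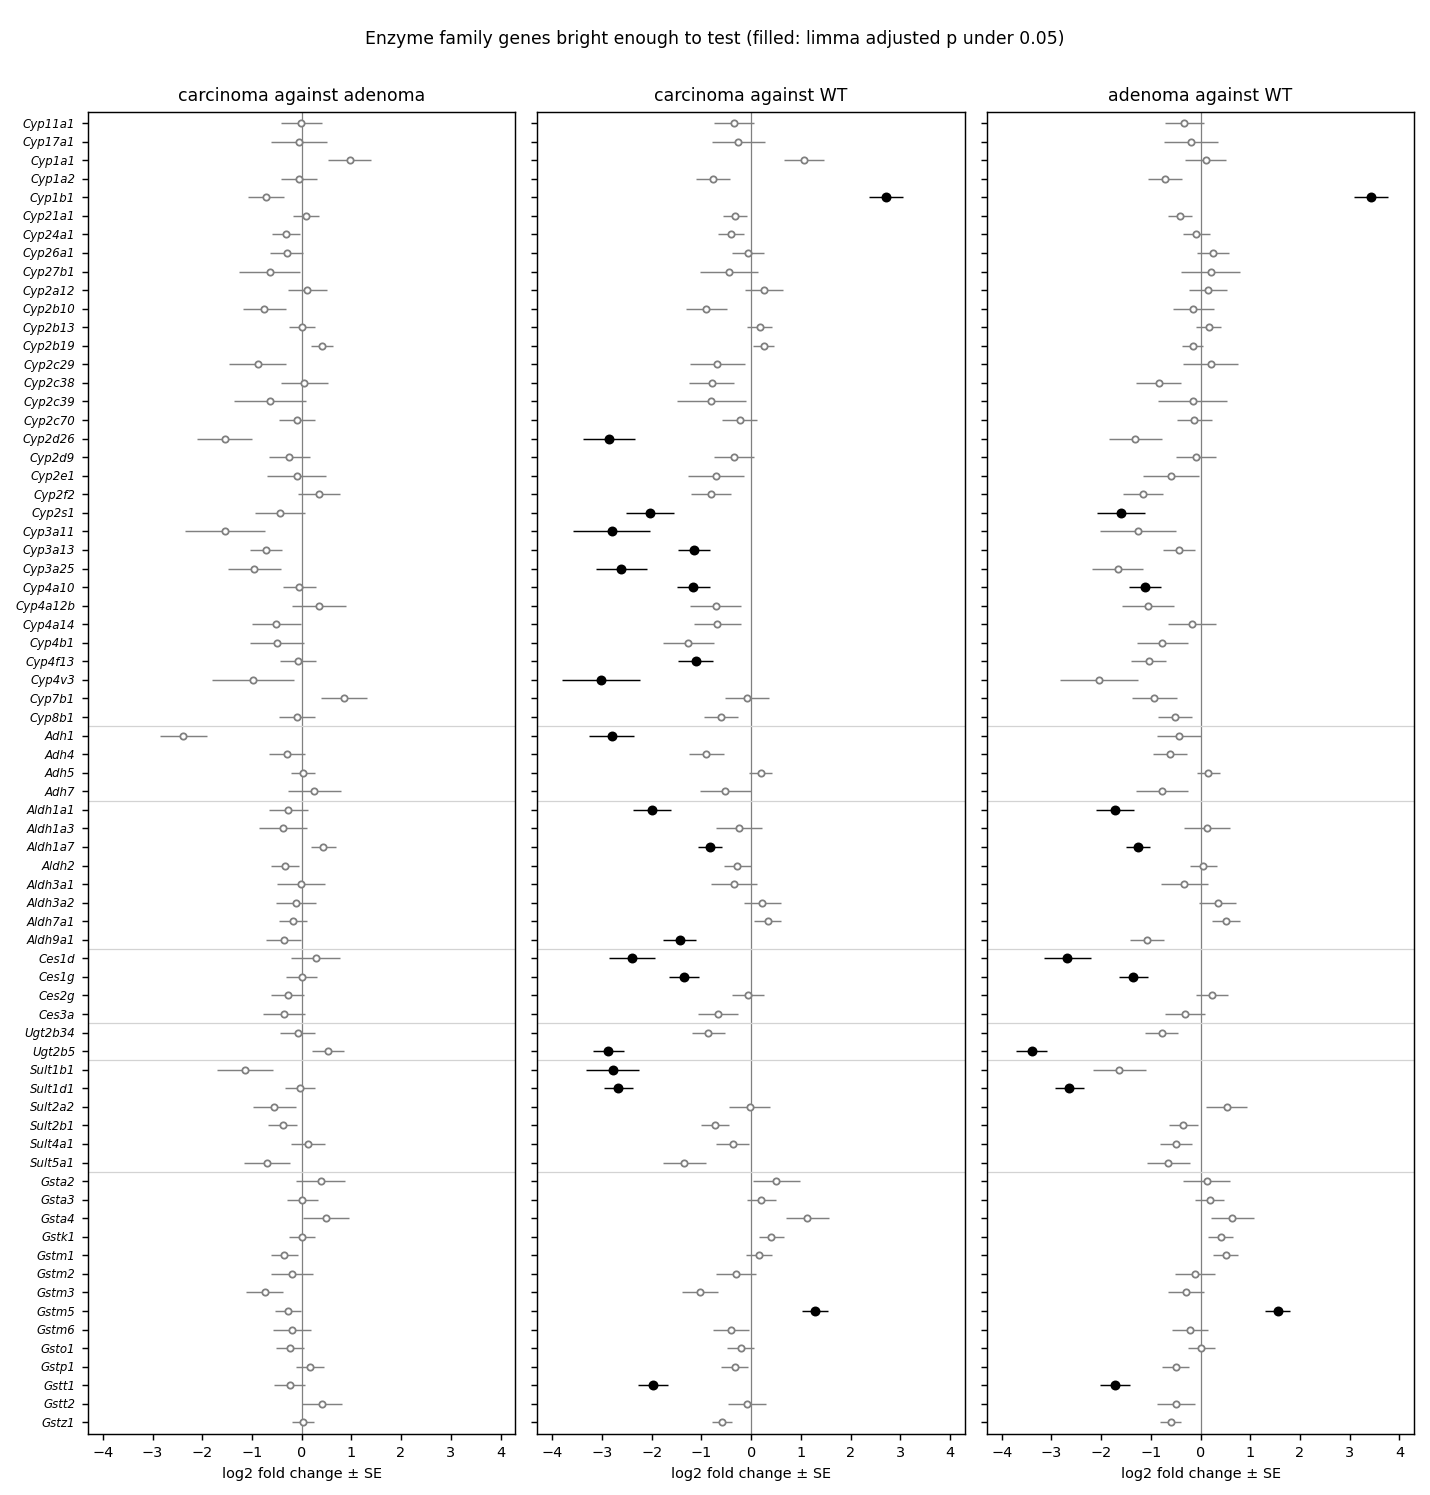
Log2 fold change ± SE (limma) of the 71 enzyme genes tested, in carcinoma against adenoma, carcinoma against WT and adenoma against WT; filled points have an adjusted p under 0.05. The 20 filled points of carcinoma against WT and the 11 of adenoma against WT lie mostly left of 0, and carcinoma against adenoma has none.

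Carcinoma against adenoma gave no call among the 71 members, with 4 at an unadjusted p under 0.05 (Adh1, Cyp1a1, Cyp2d26 and Cyp3a13). Over all genes 0.0268% passed. The members' median was -0.18, against 0.01 for all genes, with 49 of 71 (69%) below 0, where 49.1% of all genes were. Only Adh1 had no overlap between these groups, where 0.376% of all genes had every carcinoma array below every adenoma array. Cyp2d26 was at -1.54 ± 0.55, Cyp3a13 at -0.71 ± 0.33 and Cyp1a1 at 0.97 ± 0.44. The second Cyp1a1 probe set pointed the other way here too, at -0.74. Ugt2b5 was at 0.53 ± 0.32 and Cyp1b1 at -0.72 ± 0.36 and neither passed. With array weights, Adh1 passed (adjusted p = 0.0136), and it also passed without WT 2 or adenoma 2 (adjusted p = 0.0415 at most). The 2 comparisons with WT share the WT arrays, and the passing of a member in one and not the other is not a test between the tumours.

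The adenoma arrays were uneven for some members and not for others. For 9 of the 20 members past the threshold, adenoma 1 and 3 held the highest adenoma signals. These were Adh1, Aldh1a1, Aldh9a1, Cyp2d26, Cyp3a11, Cyp3a13, Cyp3a25, Cyp4v3 and Sult1b1. The same arrays had the highest enterocyte sums, 46445.5 and 31626.1, where the other 3 adenoma arrays had 3485.9 to 10847.5. They also had the lowest log2 Gapdh ratios of the adenoma arrays, 5.52 and 5.66, against 5.83 to 6.12. Their median signals, 144.8 and 153.3, were the lowest too, against 155.7 to 195.25. Ugt2b5, Sult1d1, Ces1d and Gstt1 had other adenoma arrays highest and were low on all 5. This split was noticed in the values, and the share of all genes with this order was not counted. The parts of enterocyte content and RNA quality in it were not tested.

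Genes that regulate, supply or complement the families were read from a list of 78, of which 61 could be tested. In carcinoma 15 were lower and 1 higher (median -0.38), and in adenoma 8 were lower and 2 higher (median -0.41). Over all genes the median was -0.14 in each comparison, and 4.9% were lower and 4.16% higher in carcinoma, and 4.25% lower and 4.02% higher in adenoma. Among regulators, the fatty acid receptor Ppara was at -1.83 ± 0.29 and -1.53 ± 0.29 (adjusted p = 4.14e-04 and 0.00255), and the bile acid receptor Nr1h4 at -1.17 ± 0.32 and -1.26 ± 0.32 (adjusted p = 0.0248 and 0.0179). The oxysterol receptor Nr1h3 also fell in both, at -1.46 ± 0.29 and -1.07 ± 0.29. Gata4 (-1.49 ± 0.41) and the retinoid receptor partner Rxra (-1.03 ± 0.31) were lower in carcinoma, and the intestinal factor Cdx1 in adenoma (-1.56 ± 0.48). The aryl hydrocarbon receptor Ahr was at 0.31 ± 0.49 and 0.94 ± 0.49, the pregnane X receptor Nr1i2 at 0.22 ± 0.43 and -0.26 ± 0.43, and Nfe2l2, which encodes NRF2, at 0.24 ± 0.25 and 0.11 ± 0.25. None of these 3 passed. Hnf4a, which encodes an HNF4 factor, was at the floor on all carcinoma arrays, but not on all adenoma or all WT arrays. It did not pass either.

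Maoa, a monoamine oxidase, had the most negative fold changes of the list, at -4.24 ± 0.44 in carcinoma and -2.83 ± 0.44 in adenoma (adjusted p = 4.35e-06 and 4.32e-04). The esterase Aadac was at -2.67 ± 0.60 and -2.01 ± 0.60, the microsomal transferase Mgst1 at -1.46 ± 0.40 and -1.69 ± 0.40, and the flavin monooxygenase Fmo1 at -1.18 ± 0.30 and -1.29 ± 0.30, all lower in both. Lower in carcinoma were the efflux pumps Abcg2 (-2.65 ± 0.57) and Abcc2 (-1.97 ± 0.38), the epoxide hydrolase Ephx2 (-1.34 ± 0.34) and the retinol dehydrogenase Rdh7 (-2.26 ± 0.53). Fmo5 and Aox1 were too, and since they were at the floor on all carcinoma arrays their values of -1.25 and -1.37 are bounds. The aldo-keto reductase Akr1b8 rose in both, at 2.28 ± 0.35 and 2.05 ± 0.35, and Tpmt, a thiopurine methyltransferase, in adenoma (1.09 ± 0.32).

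Some of these calls rest on choices of analysis or on few arrays. Aldh9a1, Cyp4a10, Cyp4f13, Gstm5 and Ugt2b5 lie on probe sets whose name marks probes shared within a sequence family, so signal from related genes cannot be told apart from theirs. With the Gapdh ratio as a covariate, 3 of the 20 carcinoma calls and 3 of the 11 adenoma calls remained, those of Cyp1b1, Sult1d1 and Ugt2b5. Calls over all 7455 genes fell there too, from 675 to 100 in carcinoma and from 617 to 70 in adenoma. The member calls lost with this covariate kept their sign. In carcinoma Adh1 was at -2.70 ± 0.74 (adjusted p = 0.0899), Cyp2d26 at -2.67 ± 0.88 (adjusted p = 0.198) and Gstt1 at -1.59 ± 0.49 (adjusted p = 0.145), while Cyp4v3 was at -1.13 ± 1.18, Cyp3a11 at -0.76 ± 1.12 and Cyp3a13 at -0.30 ± 0.46. Cyp1b1, Sult1d1 and Ugt2b5 passed under all 30 alternatives in both comparisons with WT. With spike-in signal as the covariate 12 of the carcinoma calls remained, and 9 remained when the 4 WT arrays with the highest spike-in values were dropped. Over all genes, 382 and 217 passed in carcinoma under these settings. Weak calls in carcinoma were those of Cyp3a11 (lost without any 1 of 4 arrays, WT 1 and carcinoma 1, 3 and 5), Cyp3a13 (6 arrays), Cyp4a10 (6) and Cyp4f13 (13), with adjusted p between 0.0508 and 0.108 when lost. The adenoma call of Cyp4a10 was lost without any 1 of 9 arrays. None of the 20 members changed the sign of a called fold change under any of the 30 alternatives.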

How the data were processed

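RNA of laser-captured ileal epithelial cells was amplified and hybridised to Affymetrix MG_U74Av2 arrays, per the labels' protocols. The authors deposited 1 intensity per array for 12488 probe sets on a linear scale. The software and settings that made these values are not stated in these sources. With 2% of values trimmed from both ends, array means were 500.3 to 500.4, which was read as earlier scaling, and no scaling was added. Median signal ran from 126.8 to 234.2 per array. No 2 arrays held identical values.

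Values were floored at 46.9, log2-transformed and reduced to 1 probe set per gene, the one with the highest mean. Genes above the floor on at least 5 arrays (7455 of 8251) were fitted in 3 groups with limma 3.58.1 in R 4.3.3 (lmFit, eBayes, 13 residual degrees of freedom), with Benjamini-Hochberg adjustment per comparison at 0.05, two-sided. Groups came from sample titles. The fit was tested on simulated data. Symbols came from the platform annotation, and the 66 control probe sets were not tested. Exact permutation tests compared the spike-in and Gapdh measures. Promoters and gene order came from RefSeq (GRCm38.p6), with promoters for 18 of the 20 members past the threshold and none for Ces1d and Cyp4a10. Plots used matplotlib 3.10.9 (Python 3.11.15).

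Named are all members past a threshold, the member of each family with the highest mean signal, and the 2 uncalled members per family with the largest absolute fold change against WT. Some further uncalled members were named after their values were seen. The members, lists, motifs and alternatives were chosen with earlier results of these data known. The alternatives were 2 other scalings, 2 other floors, 2 other filters, averaging of probe sets, replicate number as a block, robust estimation with a variance trend, array weights, fits of only 2 groups, 2 covariates, 4 WT arrays left out together and each array left out in turn.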

Additional observations from a re-analysis of the deposited data

Results flagged for a closer look

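In 15 of 104 groups of named members, 1 array stood apart from the others of its group on the log2 scale by Dixon's test. By chance this happens in about 1 in 20 groups of normally distributed values. Values set to the floor are not so distributed, so the 15 of 104 cannot be compared with that rate. In many of the 15 groups the other arrays sat at or near the floor of 5.55, so that 1 array above it stands out. Among carcinoma arrays these were carcinoma 1 for Sult1d1 (6.81), carcinoma 2 for Cyp4f13 (6.25), carcinoma 3 for Ces3a (6.13) and Cyp3a25 (5.77), carcinoma 4 for Ces1d (8.56) and Cyp4a10 (5.86), and carcinoma 5 for Ces1g (6.66). Carcinoma 4 is the array on which Ces1d overlapped WT, and carcinoma 5 the one for Ces1g. Among adenoma arrays they were adenoma 1 for Sult2b1 (7.03), adenoma 2 for Adh4 (7.003), Adh7 (5.85) and Cyp4a10 (6.13), adenoma 4 for Aldh7a1 (8.75) and adenoma 5 for Cyp4f13 (6.40). WT 1 stood apart for Cyp1b1 (6.11), as the single WT array above the floor, and for Gsta4 (6.37), below the other WT arrays.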

How the results depend on the processing

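Across 30 alternatives no fold change past the threshold as reported changed sign. Some that were not past it did, among them in adenoma against WT those of Cyp3a11 (-1.93 to 0.99), Cyp3a13 (-0.65 to 0.50) and Cyp4v3 (-2.73 to 0.04). The number of members past it, 20 in carcinoma against WT and 11 in adenoma against WT, moved most with the control measures. With a covariate for the Gapdh ratio it was 3 and 3, with one for spike-in signal 13 and 11, and 9 and 7 when the 4 WT arrays with the highest spike-in values were dropped. The number over all genes, 675 and 617 as reported, fell as well. In the same order it was 100 and 70, 382 and 398, and 217 and 196. The control measures differ between the groups themselves, and the cause of the lost calls was not tested. With 1 array left out, the numbers ran from 14 to 21 in carcinoma and from 9 to 12 in adenoma. In carcinoma against adenoma there was no call, 1 with array weights (Adh1), and 0 to 1 with an array left out. Under the other alternatives the numbers against WT stayed within 1.5 times. Same-numbered arrays did not deviate together in the way of pairs, with correlations from -0.27 to 0.40, and each array was closest to its own number in only 1 or 2 of 5 pairs per comparison. With the replicate number as a block, 22 members passed in carcinoma (19 of the 20, Aldh1a7 lost), 15 in adenoma (all 11 and 4 more) and 0 between the tumours. Signal over background limits Cyp4a10, Cyp4f13, Ces1g, Cyp3a25 and Sult1d1, whose tumour arrays lie mostly at the floor.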
